A study of Homo sapiens with 18 samples.

Results

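The genes described here are the protein-coding genes of KBM7 cells that stretch over 500 kb or more of the genome, measured from the start to the end of the gene in GENCODE release 29 (GRCh38). Of 58051 gene identifiers counted in each library, 188 met this span and had at least 20 counts summed over the 18 libraries. The annotation holds 317 protein-coding genes of that span, of which 315 had a row in the count tables, 1 was left out by the rule, and 126 had fewer than 20 counts, 23 of them none at all. Expression was high enough for testing in 148 of the 188, and the other 40 had at most 118 counts in total. Spans ran from 500.045 kb to 2298.478 kb with a median of 693.07 kb, and 35 genes reached 1 Mb. Just inside the limit lay AFF2 at 500.045 kb and SPOCK3 at 501.413 kb, and just outside it DIAPH3 at 498.405 kb and CACNA2D1 at 497.355 kb. The rule used only the annotation and the total count, not the response to any compound.

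KBM7 is an established human line derived from chronic myelogenous leukaemia, and the labels name no genetic change in any group. Cells received dCeMM-1, dCeMM-2, dCeMM-3 or dCeMM-4, each at 10 times its EC50, THZ531 at 600 nM, or the solvent DMSO, all for 5 h, with 3 libraries in each of the 6 groups. As background, dCeMM-1 is known to cause degradation of the splicing factor RBM39, and the other dCeMM compounds that of cyclin K, the partner of the kinases CDK12 and CDK13, which THZ531 blocks covalently. Each compound is compared with the same DMSO libraries, so the 5 comparisons are not independent of each other. Whether the 3 libraries per group are separate cultures is not in the labels, so p-values measure the spread between these libraries only.

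In a very long gene nearly all of the span is intron, and RNA polymerase II must travel the whole of it before a full-length transcript can be released. CDK12 and CDK13 phosphorylate the polymerase tail and are known for keeping elongation productive and for preventing early polyadenylation inside introns. Genes of this size are known for encoding adhesion, synaptic and signalling proteins, and several of them lie at common fragile sites, regions that break under replication stress. The comparisons ask how the polyadenylated RNA of such genes responded when cyclin K, its kinases or RBM39 was the target.

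Gene counts per library ranged from 4598576 to 17943571, with DMSO replicate 3 the shallowest. Replicate libraries differed from each other by more than sampling noise, with a chi-square per degree of freedom of 1.41 to 17.2, and none was treated as a duplicate. THZ531 replicate 1 stood apart from the other two THZ531 libraries, at 15.4 and 17.2 against them where they had 1.41 between them, and the THZ531 results are given with and without it below. Reads that overlapped no counted feature, a class that can hold reads from introns, made up 4.99% of the reads of THZ531 replicate 1, against 8.27% and 8.18% in the other two. In the other groups this share was 6.38% to 8.42% with dCeMM-2, 4.43% to 6.12% with dCeMM-3, 7.82% to 9.05% with dCeMM-4, 5.41% to 6.01% with dCeMM-1 and 4.66% to 5.37% in DMSO, and its part in the results was not tested. The spike-in scaling factor of THZ531 replicate 1 was 1.31, against 1.86 and 1.84 in the other two THZ531 libraries. Of 10 blood-cell marker genes, 8 or 9 averaged at least 1 CPM (counts per 1000000 counts) in every group, and their summed level was 791 to 889.9 CPM with THZ531, 899 to 969.5 with dCeMM-2, 872 to 944 with dCeMM-3, 1388 to 1449 with dCeMM-4, 1412 to 1511 with dCeMM-1 and 1589 to 1735 in DMSO. Of 5 epithelial markers 2 or 3 reached 1 CPM, mainly the keratins KRT8 and KRT18, with a summed level of 96.9 to 97.9 CPM with THZ531, 117 to 132 with dCeMM-2, 79.1 to 94.8 with dCeMM-3, 81.6 to 83.5 with dCeMM-4, 50.1 to 57.3 with dCeMM-1 and 62.6 to 69.3 in DMSO. KRT19 had no count in any group but DMSO, where it averaged 0.0193 CPM. Of 5 fibroblast markers at most 2 reached 1 CPM in a group and none did in DMSO, and none of 6 neuron markers did in any group. The part of these marker levels in the results was not tested. Levels are CPM after TMM scaling, which holds the bulk of genes near a log2 fold change of 0, unless the spike-in scale is named. With spike-in scaling the all-gene median log2 fold change was -1.94 with THZ531, -1.80 with dCeMM-2, -1.96 with dCeMM-3, -0.56 with dCeMM-4 and 0.10 with dCeMM-1, so directions on the TMM scale hold relative to the bulk of genes. A gene is said to have risen or fallen where the quasi-likelihood test of edgeR gave a Benjamini-Hochberg adjusted p of at most 0.05 over the 15055 genes tested, and the sizes given for such genes are log2 fold changes with their standard errors (SE).

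In DMSO most of the long genes lay under 10 CPM. Of the 188, 71 averaged 10 CPM or more, 59 lay between 1 and 10 CPM and 58 lay below 1 CPM, and the 10 highest held 40.8% of their summed level. Per kilobase of exon, the tested long genes had a median level of 0.776 CPM, against 5.65 CPM for tested protein-coding genes under 500 kb. Exon length joins the exons of all annotated transcripts of a gene, with medians of 10356 bp and 5113 bp in these groups. Its part in the difference was not tested. The highest DMSO levels per kilobase of exon were those of SMYD3, a lysine methyltransferase, at 29.7 CPM, ARHGAP15, a GTPase-activating protein for Rac, at 27.5, CELF2, an RNA-binding splicing regulator, at 22.1, DLC1, a tumour suppressor, at 17.2, and ADK, adenosine kinase, at 16.2. ARHGAP15 and CELF2 are both known for high expression in blood cells. The longest members were PTPRD, a receptor tyrosine phosphatase, DMD, which encodes dystrophin, and DLG2, a synaptic scaffold. In the DMSO libraries DMD had 58.8, 51.3 and 59.4 CPM, PTPRD 1.74, 2.14 and 0.767 CPM and DLG2 0.636, 0.209 and 0.383 CPM. Per kilobase of exon these means were 2.99 CPM for DMD, 0.139 for PTPRD and 0.0245 for DLG2.

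Added up over the 188 genes, the direction of the long-gene RNA with THZ531 and dCeMM-2 depended on the scale. On the TMM scale the summed level was 4744 ± 49.9 CPM with THZ531, 4484 ± 141 with dCeMM-2, 3915 ± 19.96 with dCeMM-3, 3699 ± 51.5 with dCeMM-4, 3862 ± 75.4 with dCeMM-1 and 3905 ± 103 in DMSO (SD, n = 3 each). Every THZ531 and dCeMM-2 library lay above every DMSO library, and every dCeMM-4 library lay below them, while the dCeMM-1 and dCeMM-3 libraries overlapped them. As an unscaled share of gene counts the long genes took 0.432% ± 0.0211 with THZ531, 0.414% ± 0.0185 with dCeMM-2, 0.373% ± 0.0173 with dCeMM-3, 0.357% ± 0.0102 with dCeMM-4, 0.443% ± 0.00831 with dCeMM-1 and 0.437% ± 0.00322 in DMSO. By that share the dCeMM-2, dCeMM-3 and dCeMM-4 libraries lay below every DMSO library, and the THZ531 and dCeMM-1 libraries overlapped them. When the same libraries were scaled by their ERCC and SIRV spike-in RNA, the sum was 2643 ± 418 CPM with THZ531, 2617 ± 471 with dCeMM-2, 2223 ± 372 with dCeMM-3, 5009 ± 992 with dCeMM-4, 8094 ± 1097 with dCeMM-1 and 7841 ± 786 in DMSO. Every library of THZ531, dCeMM-2, dCeMM-3 and dCeMM-4 lay below every DMSO library on the spike-in scale, and dCeMM-1 overlapped DMSO. Whether fewer cells or less RNA per cell lowered a spike-in scaled level cannot be told apart in these libraries.

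**Figure D1:**
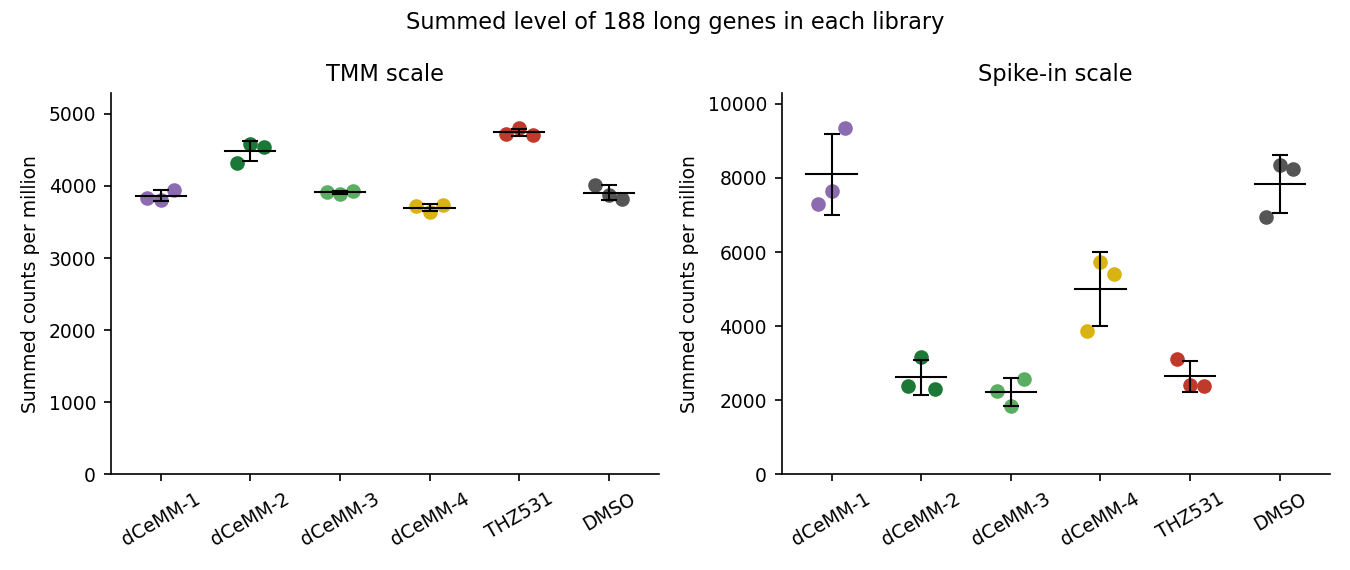
Summed level of the 188 long genes in each library, in CPM scaled by TMM (left) or by spike-in RNA (right). Points are libraries, horizontal lines are group means and bars are SD over 3 libraries. On the left the THZ531 and dCeMM-2 points lie above the DMSO points, and on the right all groups but dCeMM-1 lie below them.

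With THZ531, more long genes rose than fell on the TMM scale, the reverse of the balance over all genes. Against DMSO, 76 of the 148 tested long genes were higher and 36 lower, 51.4% and 24.3% of them, where 35.8% of all genes tested were higher and 43.7% lower. Their median log2 fold change was 0.46, where that of all genes was -0.10, and 27 long genes rose and 10 fell at least 2-fold (18.8% and 26.7% of all genes). At 2-fold the share of long genes that rose was near that of all genes, and the share that fell was lower. Without THZ531 replicate 1, 73 of the 152 long genes then tested were higher and 32 lower, 48.0% and 21.1%, beside 33.7% and 42.4% of all genes, with medians of 0.47 for the long genes and -0.09 for all genes. Of the 112 calls, 102 were made in the same direction without it and 10 no longer passed the test, none of them among the 8 genes described next.

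Among long genes of at least 2 CPM in the higher group, PCDH15 rose furthest; it encodes a protocadherin of the tip links of inner-ear hair cells and lies on chromosome 10, 53802771 to 55627942, minus strand. It had 10.5, 10.7 and 10.1 CPM with THZ531, against 1.91, 2.04 and 0.958 CPM in DMSO. All THZ531 libraries lay above all DMSO libraries, and PCDH15 rose by 2.50 on the log2 scale (SE 0.21, edgeR adjusted p = 5.7e-14). ZBTB20, a zinc-finger repressor of transcription, had 6.57, 10.3 and 12.3 CPM with THZ531, against 3.47, 2.51 and 2.68 CPM in DMSO. It rose by 1.73 on the log2 scale (SE 0.20, edgeR adjusted p = 4.51e-10). Of its exon bases, 47.7% are shared with another gene on the same strand, and how this affected its counts was not tested. SPOCK3, which encodes the secreted proteoglycan testican-3, rose by 1.53 on the log2 scale (SE 0.17, edgeR adjusted p = 1.44e-10), at 13.3, 11.1 and 11.1 CPM with THZ531, against 4.40, 4.02 and 3.45 CPM in DMSO. PTPRG, a receptor tyrosine phosphatase, lies on chromosome 3, 61561569 to 62297613, plus strand. It had 139, 122 and 123 CPM with THZ531, against 44.2, 48.7 and 45.2 CPM in DMSO, and rose by 1.47 on the log2 scale (SE 0.08, edgeR adjusted p = 9.41e-19).

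The genes that fell furthest with THZ531 encode a polarity scaffold, a phosphodiesterase, a transcription factor and a junction protein. FRMD4A, a FERM-domain scaffold of cell polarity, had 0.246, 0.0877 and 0 CPM with THZ531, against 4.11, 3.39 and 2.11 CPM in DMSO. It fell by 4.85 on the log2 scale (SE 0.47, edgeR adjusted p = 4.24e-12) on only 4 counts over the 3 THZ531 libraries, and the estimate was -6.11 without THZ531 replicate 1. Of its exon bases, 17.6% are covered by a gene on the opposite strand, and the strand setting of the counting is not stated. PDE4B, a phosphodiesterase that breaks down cyclic AMP, had 20.5, 21.9 and 14.98 CPM with THZ531, against 117, 115 and 110.2 CPM in DMSO, and fell by 2.58 on the log2 scale (SE 0.09, edgeR adjusted p = 3.29e-25). MECOM encodes EVI1, a zinc-finger transcription factor of blood stem cells and myeloid leukaemia. Its level was 5.99, 3.68 and 4.97 CPM with THZ531, against 27.4, 27.8 and 23.8 CPM in DMSO, and it fell by 2.44 on the log2 scale (SE 0.13, edgeR adjusted p = 1.09e-19). KAZN, which encodes the junction protein kazrin, fell by 2.27 on the log2 scale (SE 0.13, edgeR adjusted p = 3.01e-18), at 4.60, 6.05 and 5.91 CPM with THZ531, against 24.6, 27.9 and 27.8 CPM in DMSO, and 24.9% of its exon bases lie under a gene on the opposite strand. In all 4 genes the THZ531 libraries lay below every DMSO library.

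Promoter windows of 300 bases are shown for 4 of these genes, because PTPRG rose and MECOM and PDE4B fell with THZ531, dCeMM-2 and dCeMM-3, and AUTS2, a partner of polycomb complexes, rose with dCeMM-4 and fell with dCeMM-3 and THZ531. The windows come from RefSeq (GRCh38.p14) and run from 250 bases before the gene start to 50 bases after it: PTPRG chr3:61561321-61561620 plus strand, MECOM chr3:169663663-169663962 minus strand, PDE4B chr1:65792260-65792559 plus strand and AUTS2 chr7:69598225-69598524 plus strand. The RefSeq start of AUTS2 lies 179 bases inside the GENCODE gene and that of MECOM 94 bases before its annotated 5′ end. Capitals mark GGGCGG or its reverse complement CCGCCC, the only one of 4 searched motifs found in them.
PTPRG: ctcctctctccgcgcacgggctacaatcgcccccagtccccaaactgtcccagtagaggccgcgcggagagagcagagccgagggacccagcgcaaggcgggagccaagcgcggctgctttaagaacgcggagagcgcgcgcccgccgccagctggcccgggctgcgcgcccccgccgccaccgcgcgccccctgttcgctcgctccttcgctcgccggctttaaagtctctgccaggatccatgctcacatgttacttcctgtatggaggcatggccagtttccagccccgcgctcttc
MECOM: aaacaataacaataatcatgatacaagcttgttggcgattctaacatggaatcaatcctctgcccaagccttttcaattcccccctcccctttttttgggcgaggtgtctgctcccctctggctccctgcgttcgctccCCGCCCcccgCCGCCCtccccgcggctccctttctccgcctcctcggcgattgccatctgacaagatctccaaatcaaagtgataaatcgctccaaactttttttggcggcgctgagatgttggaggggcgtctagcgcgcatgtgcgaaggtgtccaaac
PDE4B: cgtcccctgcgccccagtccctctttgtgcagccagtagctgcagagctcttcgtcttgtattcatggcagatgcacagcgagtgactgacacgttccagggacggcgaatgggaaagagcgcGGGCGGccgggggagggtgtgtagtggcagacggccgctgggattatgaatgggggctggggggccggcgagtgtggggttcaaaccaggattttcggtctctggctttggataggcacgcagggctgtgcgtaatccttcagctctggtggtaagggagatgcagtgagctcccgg
AUTS2: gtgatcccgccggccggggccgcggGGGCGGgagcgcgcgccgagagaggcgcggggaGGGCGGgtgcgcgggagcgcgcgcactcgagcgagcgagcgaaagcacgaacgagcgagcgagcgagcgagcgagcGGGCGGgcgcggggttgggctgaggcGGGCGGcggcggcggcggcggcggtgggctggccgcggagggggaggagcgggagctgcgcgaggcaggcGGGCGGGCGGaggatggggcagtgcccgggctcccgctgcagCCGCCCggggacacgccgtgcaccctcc

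The window of PTPRG held no match and 34 CG dinucleotides, that of MECOM 2 matches, that of PDE4B 1 match, and that of AUTS2 7 matches and 55 CG dinucleotides. Both strands were searched for TATAAA (the TATA box), TGACGTCA (the cAMP response element), GGGCGG (the GC box) and CCAAT (the CCAAT box), and 1 pair of matches in AUTS2 overlapped. Of the 156 long genes with a window, 53.2% held the GC box, 30.1% the CCAAT box, 10.9% the TATA box and 1.28% the cAMP response element. Over all 27305 RefSeq windows these shares were 44.6%, 35.7%, 11.95% and 1.98%. The median GC content was 64.7% for the long genes and 58.3% over all windows. The matches describe letters only.

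With dCeMM-2, too, more long genes rose than fell on the TMM scale. Against DMSO, 66 of the 148 tested long genes were higher and 34 lower, 44.6% and 23.0% of them, where 37.1% of all genes tested were higher and 41.2% lower. The median log2 fold change was 0.31 for the long genes and -0.02 for all genes, and 21 long genes rose and 17 fell at least 2-fold (19.3% and 23.8% of all genes). At 2-fold both shares of the long genes lay below those of all genes. PCDH15 led again, at 10.6, 10.2 and 8.04 CPM with dCeMM-2, and rose by 2.41 on the log2 scale (SE 0.21, edgeR adjusted p = 3.06e-13). DOCK3, a guanine nucleotide exchange factor for Rac, had 57.4, 61.6 and 59.9 CPM with dCeMM-2, against 22.1, 24.6 and 22.0 CPM in DMSO. Its libraries were tight within each group and far apart between them, and it rose by 1.37 on the log2 scale (SE 0.08, edgeR adjusted p = 1.52e-17). SUPT3H, a subunit of the SAGA coactivator, had 15.2, 13.02 and 20.7 CPM with dCeMM-2, against 6.71, 6.16 and 5.37 CPM in DMSO, and rose by 1.35 on the log2 scale (SE 0.15, edgeR adjusted p = 1.28e-10). KHDRBS2, an RNA-binding protein of the KH-domain family, rose by 1.27 on the log2 scale (SE 0.16, edgeR adjusted p = 3.25e-09), at 10.5, 9.63 and 10.7 CPM with dCeMM-2, against 4.80, 4.12 and 3.07 CPM in DMSO.

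On the other side FRMD4A had 0.0743, 0.324 and 0.255 CPM with dCeMM-2 and fell by 3.99 on the log2 scale (SE 0.42, edgeR adjusted p = 5.98e-11), on 7 counts in all. MECOM was at 4.38, 3.96 and 3.96 CPM with dCeMM-2, all below the DMSO range of 23.8 to 27.8 CPM, and fell by 2.69 on the log2 scale (SE 0.14, edgeR adjusted p = 3.4e-20). KAZN fell by 2.22 (SE 0.14) with dCeMM-2, to 5.54 ± 1.39 CPM, against 26.8 ± 1.84 CPM in DMSO (SD, n = 3 each). GSE1, a coiled-coil protein found in histone deacetylase complexes, had 60.0, 58.1 and 54.9 CPM with dCeMM-2, against 203, 220.4 and 213 CPM in DMSO, and fell by 1.88 on the log2 scale (SE 0.07, edgeR adjusted p = 1.28e-24).

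With dCeMM-3 the long genes split more evenly. Against DMSO, 62 of the 148 tested long genes were higher and 49 lower, 41.9% and 33.1% of them, where 35.9% of all genes tested were higher and 45.1% lower. Their median log2 fold change was 0.13 and that of all genes -0.15, while 24 long genes rose and 27 fell at least 2-fold (19.6% and 30.6% of all genes). Both of these 2-fold shares, too, lay below those of all genes. PCDH15 had 11.3, 7.05 and 11.5 CPM with dCeMM-3 and rose by 2.46 on the log2 scale (SE 0.21, edgeR adjusted p = 7.46e-14). FGF12, an intracellular FGF homologous factor that modulates sodium channels, had 2.37, 2.38 and 2.30 CPM with dCeMM-3, against 0.694, 0.365 and 0.383 CPM in DMSO. It rose by 2.20 on the log2 scale (SE 0.39, edgeR adjusted p = 3.79e-06), on 88 counts with dCeMM-3 and 21 in DMSO. CADM2, an immunoglobulin-type adhesion molecule, rose by 1.83 on the log2 scale (SE 0.27, edgeR adjusted p = 1.45e-07), at 3.22, 4.56 and 3.50 CPM with dCeMM-3, against 1.21, 0.887 and 0.958 CPM in DMSO. BANK1, a scaffold of B-cell receptor signalling, had 42.4, 41.8 and 45.4 CPM with dCeMM-3, against 17.9, 15.3 and 13.8 CPM in DMSO, and rose by 1.43 on the log2 scale (SE 0.10, edgeR adjusted p = 8.78e-16). Each of these genes was higher in all dCeMM-3 libraries than in any DMSO library.

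PDE4B and MECOM fell further with dCeMM-3 than any other long gene but FRMD4A. PDE4B had 5.92, 5.49 and 7.15 CPM with dCeMM-3, against 117, 115 and 110.2 CPM in DMSO, and fell by 4.20 on the log2 scale (SE 0.11, edgeR adjusted p = 8.11e-30) on 233 counts with dCeMM-3 and 4797 in DMSO. MECOM was at 2.24, 2.59 and 1.83 CPM with dCeMM-3 and fell by 3.60 on the log2 scale (SE 0.15, edgeR adjusted p = 3.37e-23), and FRMD4A, at 0.197, 0.104 and 0.238 CPM, by 4.14 (SE 0.42). EGLN3, a prolyl hydroxylase of the hypoxia response, had 2.70, 2.49 and 1.99 CPM with dCeMM-3, against 19.1, 17.6 and 19.2 CPM in DMSO. It fell by 2.94 on the log2 scale (SE 0.16, edgeR adjusted p = 2.11e-19), with no overlap between the groups.

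With dCeMM-4 more long genes fell than rose. Against DMSO, 31 of the 148 tested long genes were higher and 61 lower, 20.9% and 41.2% of them, where 32.9% of all genes tested were higher and 35.3% lower. The long genes had a median log2 fold change of -0.18, where all genes had 0.01, and 9 of them rose and 16 fell at least 2-fold (8.75% and 16.4% of all genes). As shares of the tested long genes, both were below those of all genes. AUTS2, which lies on chromosome 7, 69598296 to 70793495, plus strand, changed in both directions across the compounds. It had 31.5, 35.5 and 32.3 CPM with dCeMM-4, against 15.5, 15.5 and 14.2 CPM in DMSO, and rose by 1.12 on the log2 scale (SE 0.10, edgeR adjusted p = 2.05e-12). With dCeMM-3 it had 5.06, 4.77 and 5.24 CPM and fell by 1.59 on the log2 scale (SE 0.13, edgeR adjusted p = 8.32e-14), and with THZ531 8.87, 9.82 and 8.28 CPM and by 0.76 on the log2 scale (SE 0.12, edgeR adjusted p = 5.18e-07). DNAH14, an axonemal dynein heavy chain, had 31.6, 31.3 and 29.9 CPM with dCeMM-4, against 13.3, 12.6 and 15.7 CPM in DMSO, and rose by 1.20 on the log2 scale (SE 0.11, edgeR adjusted p = 7.19e-12). KIF26B, a protein of the kinesin family, rose by 1.18 on the log2 scale (SE 0.25, edgeR adjusted p = 8.91e-05), at 2.86, 3.07 and 2.62 CPM with dCeMM-4, against 0.868, 1.51 and 1.53 CPM in DMSO. PCDH15 rose here too, by 1.04 (SE 0.23), to 2.80, 4.58 and 3.90 CPM with dCeMM-4.

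TMEM117, a multi-pass membrane protein, had 4.41, 3.77 and 5.30 CPM with dCeMM-4, against 15.4, 17.7 and 14.4 CPM in DMSO, and fell by 1.84 on the log2 scale (SE 0.15, edgeR adjusted p = 4.04e-14). FSTL5, a secreted follistatin-like protein, had 17.4, 16.5 and 16.8 CPM with dCeMM-4, against 67.2, 52.3 and 52.5 CPM in DMSO. It fell by 1.78 on the log2 scale (SE 0.11, edgeR adjusted p = 5.7e-17), and 11.6% of its exon bases lie under a gene on the opposite strand. FOXP2, a forkhead transcription factor on chromosome 7, 114086327 to 114693772, plus strand, fell by 1.76 on the log2 scale (SE 0.12, edgeR adjusted p = 8.16e-16), at 5.22, 6.08 and 5.79 CPM with dCeMM-4, against 20.3, 18.2 and 19.5 CPM in DMSO. AKAP6, an anchor of protein kinase A, fell by 1.69 on the log2 scale (SE 0.27, edgeR adjusted p = 5.92e-07), at 0.559, 1.10 and 1.16 CPM with dCeMM-4, against 3.30, 2.77 and 3.26 CPM in DMSO. The dCeMM-4 libraries of these 4 genes lay below all DMSO libraries. The longest well-expressed member, DMD, had 22.8, 21.8 and 18.3 CPM with dCeMM-4 and fell by 1.42 on the log2 scale (SE 0.10, edgeR adjusted p = 4.87e-16).

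With dCeMM-1 fewer long genes passed the test than with any other compound, and the same held over all genes tested. Against DMSO, 25 of the 148 tested long genes were higher and 17 lower, 16.9% and 11.5% of them, where 16.5% of all genes tested were higher and 14.8% lower. Median log2 fold changes were 0.10 for the long genes and 0.03 for all genes, and 4 rose and 2 fell at least 2-fold (2.03% and 0.691% of all genes). The higher long genes numbered 13 without DMSO replicate 2, 16 without dCeMM-1 replicate 3 and 12 with DESeq2, and the lower ones 11 without dCeMM-1 replicate 1 or 2. PCDH15 had 3.28, 3.27 and 3.30 CPM with dCeMM-1 and rose by 0.84 on the log2 scale (SE 0.23, edgeR adjusted p = 0.00539). FBXL17, the substrate receptor of an SCF ubiquitin ligase, had 24.5, 27.3 and 25.1 CPM with dCeMM-1, against 14.9, 14.1 and 16.9 CPM in DMSO, and rose by 0.78 on the log2 scale (SE 0.10, edgeR adjusted p = 2.08e-07). STK3, the Hippo pathway kinase MST2, was well covered at 119.7, 111 and 118 CPM with dCeMM-1, against 85.1, 75.1 and 79.0 CPM in DMSO, and rose by 0.54 on the log2 scale (SE 0.07, edgeR adjusted p = 2.92e-07). GRIP1, a PDZ scaffold of glutamate receptors, rose by 0.57 on the log2 scale (SE 0.18, edgeR adjusted p = 0.0113), at 4.92, 4.81 and 4.15 CPM with dCeMM-1, against 3.18, 2.97 and 3.26 CPM in DMSO, but its adjusted p was 0.0756 with DESeq2 and 0.0683 without DMSO replicate 2.

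Among the falls with dCeMM-1, FRMD4A had 1.44, 1.14 and 1.38 CPM with the compound and fell by 1.38 on the log2 scale (SE 0.26, edgeR adjusted p = 8.38e-05). PLXNA4, a co-receptor for semaphorins, had 2.16, 2.53 and 2.87 CPM with dCeMM-1, against 4.34, 5.85 and 5.37 CPM in DMSO, and fell by 1.02 on the log2 scale (SE 0.20, edgeR adjusted p = 9.33e-05). HIVEP3, a zinc-finger transcription factor, fell by 0.85 on the log2 scale (SE 0.13, edgeR adjusted p = 3.14e-06), at 7.87, 7.24 and 7.24 CPM with dCeMM-1, against 12.4, 14.8 and 12.3 CPM in DMSO. DMD had 34.1, 29.4 and 30.5 CPM with dCeMM-1 and fell by 0.84 on the log2 scale (SE 0.09, edgeR adjusted p = 3.91e-09), where the DMSO libraries had 58.8, 51.3 and 59.4 CPM. All dCeMM-1 libraries lay below all DMSO libraries in these 4 genes.

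**Figure D2:**
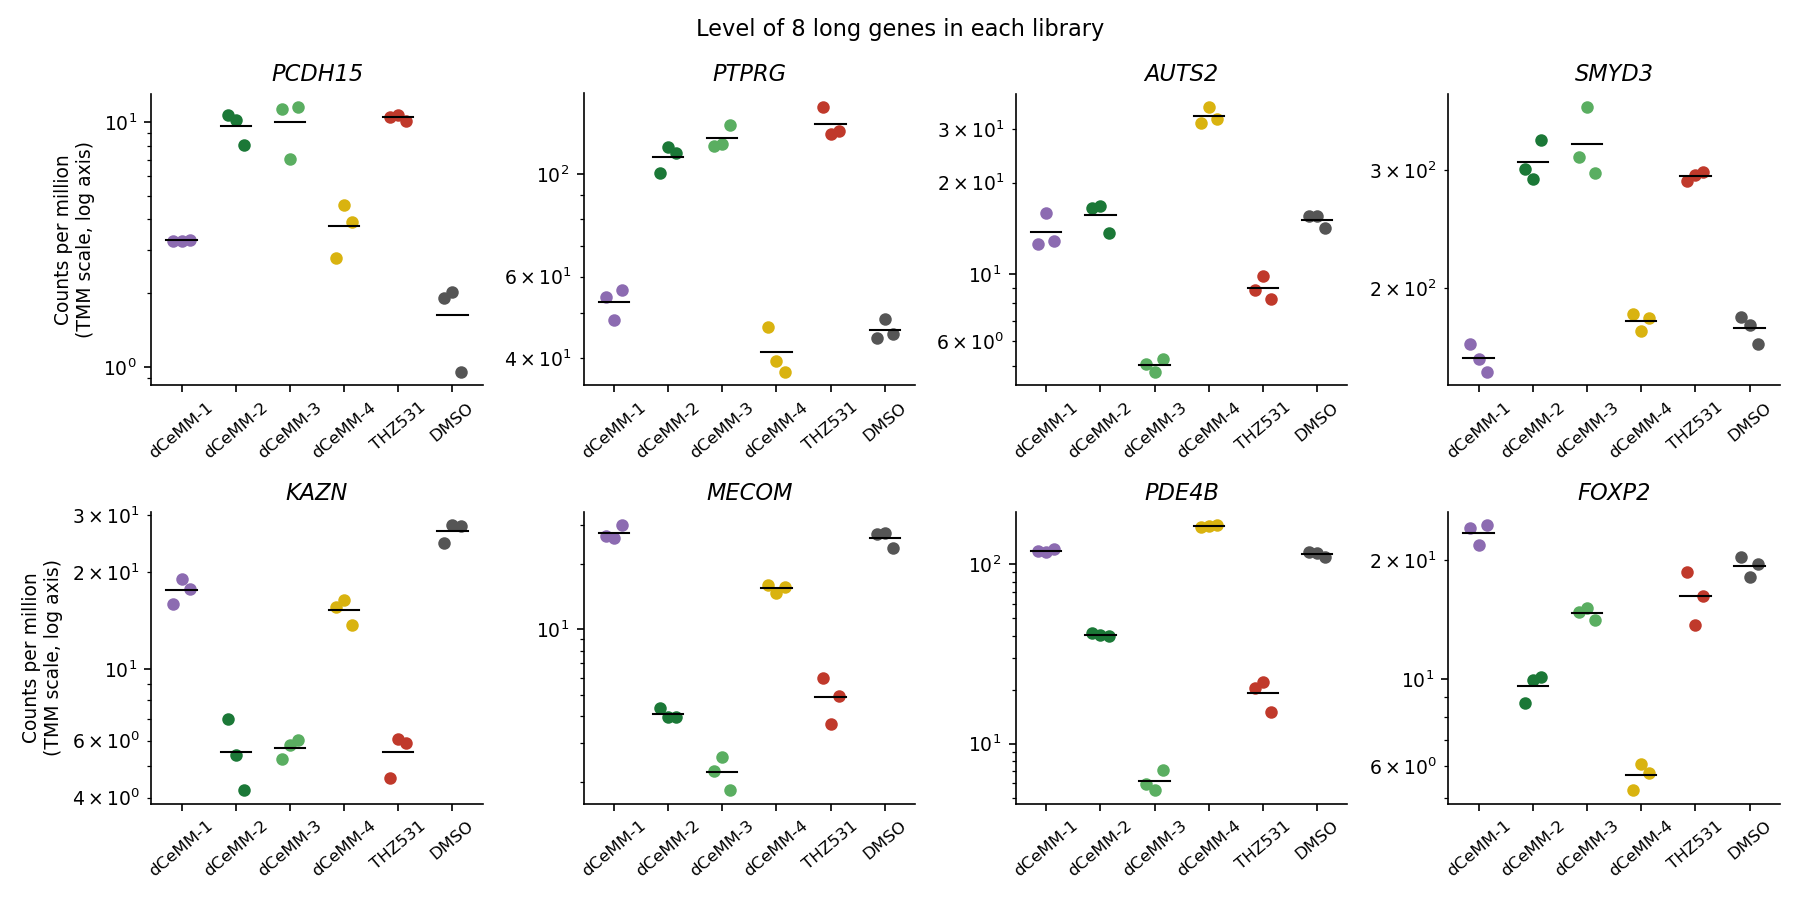
Level of 8 long genes in each library, in TMM-scaled CPM on log axes; points are libraries and horizontal lines group means (n = 3). PCDH15 lies above DMSO in all 5 compounds, with means of 10.4 CPM with THZ531 and 1.63 CPM in DMSO, while PDE4B averaged 6.19 CPM with dCeMM-3, 163 with dCeMM-4 and 114 in DMSO.

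The abundant members also differed in how they responded. SMYD3 had 289, 295 and 298 CPM with THZ531, 301, 291 and 333 with dCeMM-2 and 314, 373 and 297 with dCeMM-3, against 181, 176 and 165 CPM in DMSO. It rose by 0.75 (SE 0.07) with THZ531, by 0.82 (SE 0.07) with dCeMM-2 and by 0.91 (SE 0.07) with dCeMM-3, all with groups that did not overlap. CELF2 had 418, 407 and 399 CPM with THZ531, 414, 391 and 415 with dCeMM-3 and 157, 155 and 152 with dCeMM-4, against 253, 239.5 and 235 CPM in DMSO. It rose by 0.75 (SE 0.06) with THZ531 and by 0.75 (SE 0.06) with dCeMM-3, and fell by 0.65 (SE 0.06) with dCeMM-4. DLC1 went the other way, at 96.7, 89.0 and 94.3 CPM with THZ531, 32.2, 34.2 and 35.2 with dCeMM-3 and 286, 293 and 301 with dCeMM-4, against 219, 224 and 219 CPM in DMSO. It fell by 1.24 (SE 0.06) with THZ531 and by 2.71 (SE 0.07) with dCeMM-3, and rose by 0.41 (SE 0.06) with dCeMM-4. ARHGAP15 fell by 0.54 (SE 0.07) with dCeMM-4 and by 0.39 (SE 0.07) with dCeMM-1, and ADK fell by 0.40 (SE 0.08) with dCeMM-4 and rose by 0.34 (SE 0.08) with THZ531.

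Among the long genes, those of 1 Mb or more had the highest medians with each compound, on the TMM scale. With THZ531 the median log2 fold change was 0.76 for the 27 tested genes of 1 Mb or more, 0.62 for the 31 of 750 kb to 1 Mb and 0.29 for the 90 of 500 to 750 kb. Protein-coding genes of 100 to 500 kb, 20 to 100 kb and under 20 kb had medians of -0.23, -0.41 and -0.24. With dCeMM-2 the 3 long classes had medians of 0.73, 0.45 and 0.19, from longest to shortest, and the 3 shorter classes -0.22, -0.34 and -0.04. With dCeMM-3 the long classes had 0.56, 0.28 and -0.17 and the shorter ones -0.43, -0.44 and -0.26. With dCeMM-4 only the genes of 1 Mb or more had a positive median among the long classes, 0.22, against -0.25 and -0.25 in the other two. With dCeMM-1 the 3 medians were 0.12, 0.10 and 0.07. Of the 27 genes of 1 Mb or more, 15 rose and 2 fell with THZ531 (55.6% and 7.41%, all genes 35.8% and 43.7%), 16 rose and 2 fell with dCeMM-2 (59.3% and 7.41%, all genes 37.1% and 41.2%) and 16 rose and 4 fell with dCeMM-3 (59.3% and 14.8%, all genes 35.9% and 45.1%), with the shares of the class and of all genes tested in brackets. In the same class 9 rose and 6 fell with dCeMM-4 (33.3% and 22.2%, all genes 32.9% and 35.3%) and 4 rose and 2 fell with dCeMM-1 (14.8% and 7.41%, all genes 16.5% and 14.8%), and the shares that rose were near those of all genes. Without THZ531 replicate 1, the medians with THZ531 were 0.83, 0.52 and 0.29 from the longest class to the shortest. The class limits of 750 kb and 1 Mb were chosen with the data known, and the classes were not tested against each other.

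**Figure D3:**
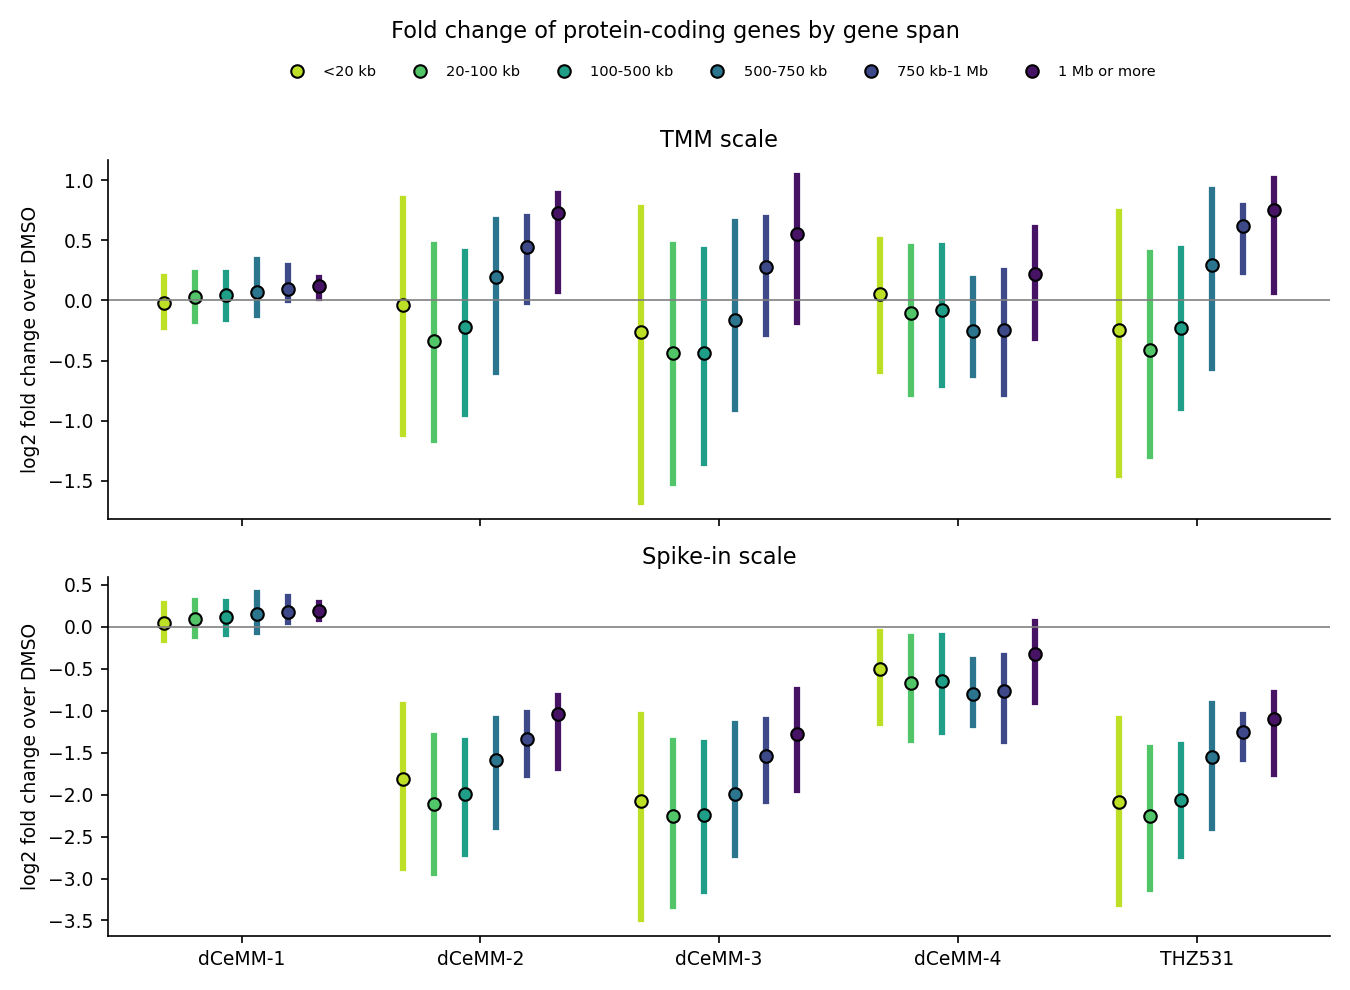
Median log2 fold change over DMSO (points) and middle range from the lower to the upper quartile (bars) of tested protein-coding genes by gene span, for each compound, on the TMM scale (top) and the spike-in scale (bottom). With THZ531, dCeMM-2 and dCeMM-3 the medians climb with span from 500 kb upwards, to 0.76, 0.73 and 0.56 at 1 Mb or more on the TMM scale and to -1.09, -1.04 and -1.28 on the spike-in scale.

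Span alone ordered the long genes weakly. Over the 148 tested genes, which share the same libraries, Spearman's rank correlation between span and log2 fold change was 0.22 with THZ531, 0.23 with dCeMM-2, 0.21 with dCeMM-3, 0.19 with dCeMM-4 and 0.13 with dCeMM-1. At a given span both directions occurred. Among genes over 1 Mb, TBC1D5, a GTPase-activating protein for Rab GTPases, rose by 1.12 (SE 0.07) with THZ531, and ROBO1, the receptor of the guidance protein SLIT, by 1.06 (SE 0.07), while KAZN fell by 2.27 (SE 0.13).

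**Figure D4:**
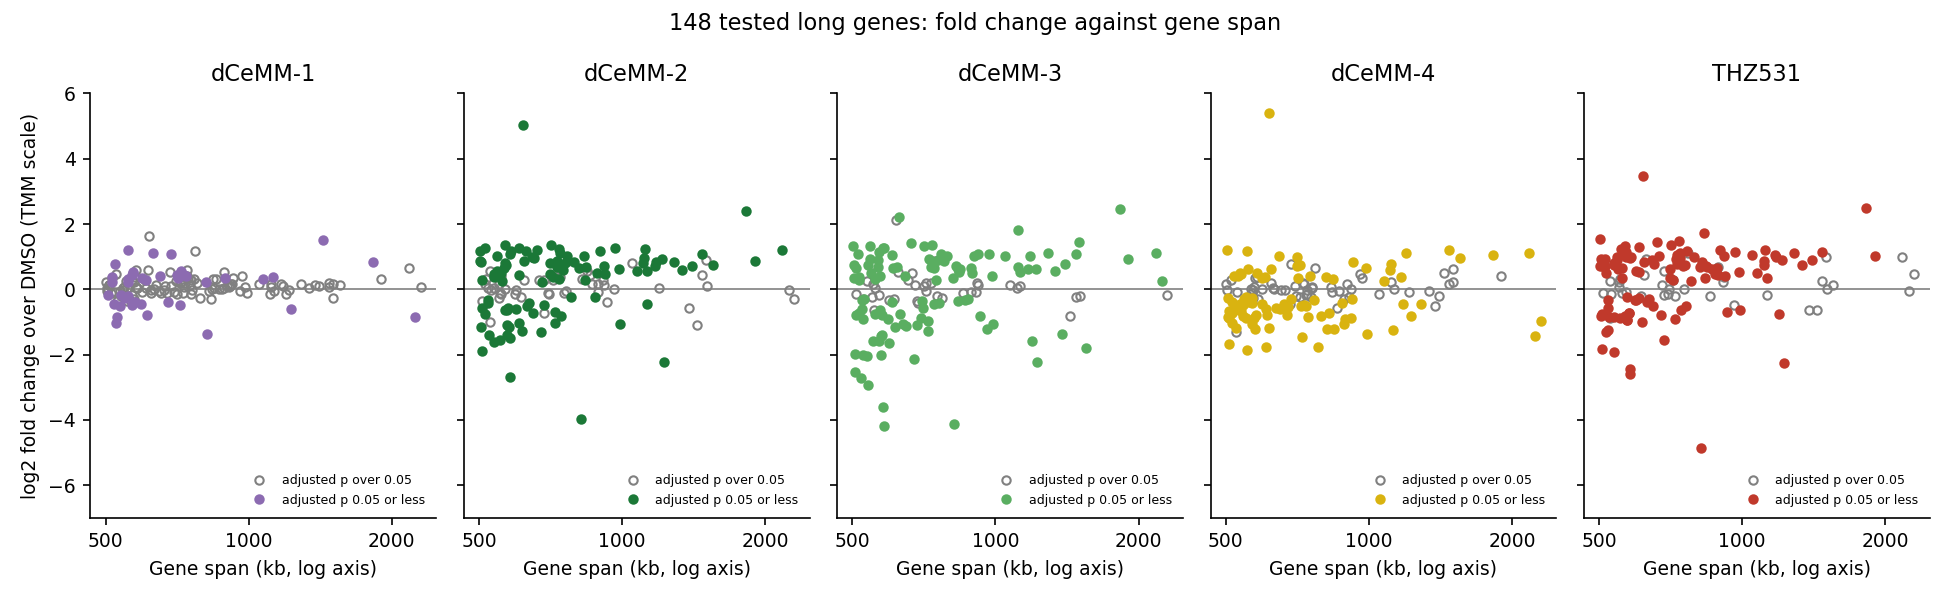
Log2 fold change over DMSO (TMM scale) of the 148 tested long genes against gene span in kb on a log axis, 1 panel per compound; filled points had an adjusted p of 0.05 or less. Most filled points with THZ531 lie above 0 (76 against 36) and most with dCeMM-4 below it (61 against 31); the highest point in the dCeMM-2, dCeMM-4 and THZ531 panels is RASGEF1B, which had 1 count in DMSO.

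The members were also described by role, from 4 lists, with the shares of each list and of all genes tested in brackets. On the TMM scale, of 27 tested among 39 genes of adhesion and the synapse, 16 rose and 3 fell with THZ531 (59.3% and 11.1%, all genes 35.8% and 43.7%), 14 rose and 3 fell with dCeMM-2 (51.9% and 11.1%, all genes 37.1% and 41.2%) and 15 rose and 5 fell with dCeMM-3 (55.6% and 18.5%, all genes 35.9% and 45.1%). Of the same 27, 7 rose and 10 fell with dCeMM-4 (25.9% and 37.0%, all genes 32.9% and 35.3%) and 5 rose and 2 fell with dCeMM-1 (18.5% and 7.41%, all genes 16.5% and 14.8%). On the spike-in scale 23 with THZ531 (85.2%, all genes 84.7%), 23 with dCeMM-2 (85.2%, all genes 83%) and 24 with dCeMM-3 (88.9%, all genes 83.7%) fell, shares close to those of all genes. Medians on the TMM scale were 0.69, 0.49, 0.52, -0.09 and 0.17 in that order. UTRN, the autosomal relative of dystrophin, rose by 1.33 (SE 0.08) with THZ531, to 194 ± 23.5 CPM, against 76.7 ± 4.42 CPM in DMSO, and fell by 0.42 (SE 0.08) with dCeMM-4. LPP, a LIM protein of focal adhesions, rose by 1.04 (SE 0.11) with THZ531 and fell by 0.51 (SE 0.12) with dCeMM-4. PARD3, a polarity scaffold, rose by 0.48 (SE 0.08) with dCeMM-2 and by 0.70 (SE 0.08) with dCeMM-4, and fell by 0.58 (SE 0.09) with dCeMM-3. ASTN2, an astrotactin, fell by 0.64 (SE 0.26) with THZ531 (edgeR adjusted p = 0.117 without THZ531 replicate 1), by 1.05 (SE 0.29) with dCeMM-2, by 1.05 (SE 0.28) with dCeMM-3 and by 1.37 (SE 0.27) with dCeMM-4.

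Signalling genes had the lowest medians of the 4 role lists with THZ531, dCeMM-2, dCeMM-3 and dCeMM-4. Of 18 tested among 21, 6 rose and 8 fell with THZ531 (33.3% and 44.4%, all genes 35.8% and 43.7%), 7 rose and 6 fell with dCeMM-2 (38.9% and 33.3%, all genes 37.1% and 41.2%) and 7 rose and 10 fell with dCeMM-3 (38.9% and 55.6%, all genes 35.9% and 45.1%). Of these 18, 5 rose and 10 fell with dCeMM-4 (27.8% and 55.6%, all genes 32.9% and 35.3%) and 3 rose and 4 fell with dCeMM-1 (16.7% and 22.2%, all genes 16.5% and 14.8%). The shares that rose lay close to those of all genes with THZ531, dCeMM-2, dCeMM-3 and dCeMM-1, and the median with dCeMM-3 was -0.85. The protein kinase C genes of this list moved in different directions. PRKCE was at 7.23, 5.91 and 6.91 CPM with dCeMM-3, 38.0, 41.8 and 38.7 with dCeMM-4 and 28.9, 26.8 and 27.0 in DMSO, and fell by 2.03 (SE 0.12) with dCeMM-3 and rose by 0.52 (SE 0.09) with dCeMM-4. PRKCA was at 43.0, 45.1 and 42.3 CPM with dCeMM-3, 13.2, 15.7 and 15.6 with dCeMM-4 and 27.9, 27.0 and 27.98 in DMSO, and rose by 0.65 (SE 0.09) with dCeMM-3 and fell by 0.89 (SE 0.10) with dCeMM-4. The phosphodiesterase PDE4D had 134, 149.6 and 133 CPM with dCeMM-2, 21.8, 20.9 and 29.6 with dCeMM-3, 166, 161 and 157 with dCeMM-4 and 90.2, 77.9 and 81.3 in DMSO. It rose by 0.74 (SE 0.08) with dCeMM-2 and by 0.95 (SE 0.08) with dCeMM-4, and fell by 1.78 (SE 0.09) with dCeMM-3. KCNQ5, a potassium channel, fell by 0.71 (SE 0.09) with THZ531, by 1.16 (SE 0.10) with dCeMM-2, by 1.39 (SE 0.10) with dCeMM-3, by 1.20 (SE 0.09) with dCeMM-4 and by 0.38 (SE 0.09) with dCeMM-1.

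Of 18 tested among 22 genes of transcription, chromatin and RNA, 10 rose and 6 fell with THZ531 (55.6% and 33.3%, all genes 35.8% and 43.7%), 8 rose and 5 fell with dCeMM-2 (44.4% and 27.8%, all genes 37.1% and 41.2%) and 7 rose and 6 fell with dCeMM-3 (38.9% and 33.3%, all genes 35.9% and 45.1%). With the other compounds 4 rose and 6 fell with dCeMM-4 (22.2% and 33.3%, all genes 32.9% and 35.3%) and 3 rose and 1 fell with dCeMM-1 (16.7% and 5.56%, all genes 16.5% and 14.8%). CAMTA1, a calmodulin-binding transcription activator, rose by 0.54 (SE 0.08) with THZ531, by 0.63 (SE 0.08) with dCeMM-2, by 0.42 (SE 0.08) with dCeMM-3 and by 0.67 (SE 0.08) with dCeMM-4. FAF1, a FAS-associated ubiquitin-binding protein that this list also holds, fell by 0.57 (SE 0.07) with THZ531, by 0.43 (SE 0.07) with dCeMM-2, by 0.61 (SE 0.07) with dCeMM-3 and by 0.62 (SE 0.07) with dCeMM-4. SYNE1, a spectrin-repeat protein of the nuclear envelope on the same list, fell by 1.32 (SE 0.20) with THZ531 and rose by 0.39 (SE 0.15) with dCeMM-1. Of 30 tested among 36 genes of traffic, cytoskeleton and metabolism, 11 rose and 7 fell with THZ531 (36.7% and 23.3%, all genes 35.8% and 43.7%), 10 rose and 8 fell with dCeMM-2 (33.3% and 26.7%, all genes 37.1% and 41.2%) and 8 rose and 13 fell with dCeMM-3 (26.7% and 43.3%, all genes 35.9% and 45.1%). In this list 3 rose and 13 fell with dCeMM-4 (10% and 43.3%, all genes 32.9% and 35.3%) and 6 rose and 2 fell with dCeMM-1 (20% and 6.67%, all genes 16.5% and 14.8%), and the shares that rose with THZ531, dCeMM-2 and dCeMM-1 were near those of all genes. Without THZ531 replicate 1, the genes that rose and fell with THZ531 numbered 17 and 1 of 29 tested for adhesion and the synapse, 6 and 7 of 18 for signalling, 10 and 6 of 18 for transcription, chromatin and RNA, and 11 and 7 of 30 for traffic, cytoskeleton and metabolism. ERC1, an active-zone and vesicle-tethering protein, had 15.3, 16.8 and 14.2 CPM with dCeMM-3, against 92.9, 88.8 and 80.9 CPM in DMSO, and fell by 2.52 on the log2 scale (SE 0.10, edgeR adjusted p = 1.77e-24). GPHN, which encodes gephyrin, fell by 2.14 (SE 0.11) with dCeMM-3, and the conserved vesicle-traffic genes LRBA and EXOC4 rose by 0.73 (SE 0.07) and by 0.70 (SE 0.09) with THZ531, where 10.3% of the exon bases of LRBA lie under a gene on the opposite strand. The 55 tested genes on none of these lists had medians of 0.63 with THZ531, 0.42 with dCeMM-2, 0.35 with dCeMM-3, -0.24 with dCeMM-4 and 0.10 with dCeMM-1.

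**Figure D5:**
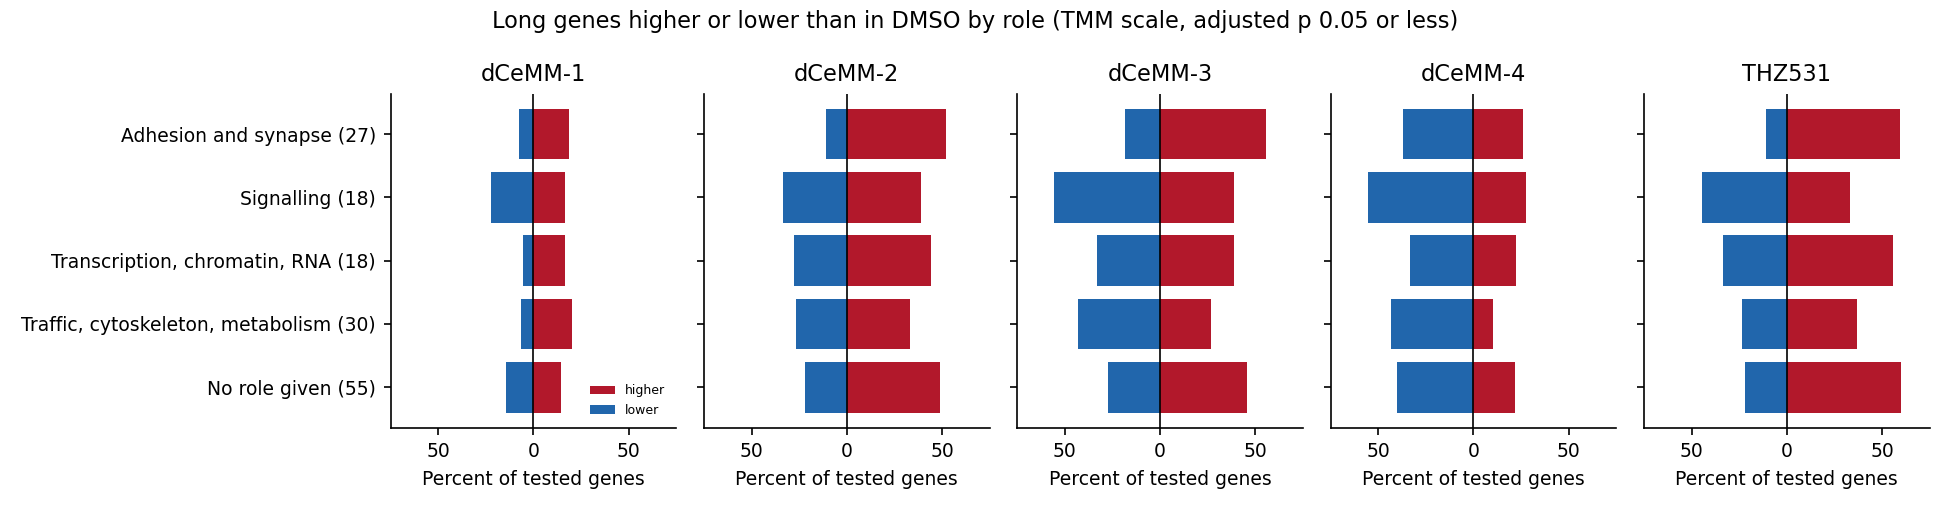
Percent of the tested long genes of each role list that were higher (red, right) or lower (blue, left) than in DMSO at an adjusted p of 0.05 or less, on the TMM scale, 1 panel per compound; the number tested is in brackets. With THZ531 16 of 27 adhesion and synapse genes rose, where 35.8% of all genes did, and with dCeMM-3 10 of 18 signalling genes fell, where 45.1% of all genes did; on the spike-in scale 23 of the 27 adhesion and synapse genes fell with THZ531, where 84.7% of all genes did.

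Genes at common fragile sites were described as a list of their own, which crosses the role lists. Of 23 tested among 25, on the TMM scale, 12 rose and 2 fell with THZ531 (52.2% and 8.70%, all genes 35.8% and 43.7%), 13 rose with dCeMM-2 while the other 10 did not pass the test (56.5% rose, all genes 37.1% higher and 41.2% lower) and 13 rose and 4 fell with dCeMM-3 (56.5% and 17.4%, all genes 35.9% and 45.1%). Of these 23, 4 rose and 2 fell with dCeMM-4 (17.4% and 8.70%, all genes 32.9% and 35.3%) and 3 rose and 1 fell with dCeMM-1 (13.04% and 4.35%, all genes 16.5% and 14.8%). On the spike-in scale 20 with THZ531 (87.0%, all genes 84.7%), 20 with dCeMM-2 (87.0%, all genes 83%) and 21 with dCeMM-3 (91.3%, all genes 83.7%) of the 23 fell, shares near those of all genes. Without THZ531 replicate 1 the TMM counts with THZ531 were 12 and 2 of 23. WWOX, an oxidoreductase and tumour suppressor, had 15.6, 16.1 and 16.6 CPM with THZ531 and 16.4, 17.4 and 17.4 with dCeMM-2, against 8.50, 9.55 and 7.47 CPM in DMSO. It rose by 0.88 (SE 0.12) with THZ531 and by 0.96 (SE 0.13) with dCeMM-2, and its log2 fold change with dCeMM-4 was 0.23 (SE 0.13, edgeR adjusted p = 0.104). IMMP2L, a peptidase of the mitochondrial inner membrane, had 22.3, 22.2 and 21.8 CPM with THZ531 and 20.3, 22.8 and 21.7 with dCeMM-2, against 10.0, 8.04 and 12.1 CPM in DMSO, and rose by 1.21 (SE 0.12) with THZ531 and by 1.18 (SE 0.12) with dCeMM-2. FHIT, a diadenosine hydrolase, was thinly covered, with 33 counts over the dCeMM-3 libraries and 13 over the DMSO libraries. It was high enough for testing only with the help of these same dCeMM-3 libraries. Its log2 fold change of 1.46 (SE 0.48) with dCeMM-3 is therefore a description only, although FHIT is counted among the 13 that rose. DPYD, which degrades pyrimidines, rose by 1.03 (SE 0.11) with THZ531, by 0.72 (SE 0.12) with dCeMM-2 and by 1.09 (SE 0.11) with dCeMM-3.

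On the spike-in scale nearly all tested long genes fell with the 3 treatments that raised many of them on the TMM scale. The shares that fell were only a little above those of all genes. There were 1 higher and 131 lower with THZ531, where 1.32% of all genes were higher and 84.7% lower. Without THZ531 replicate 1, 136 of the 152 long genes then tested (89.5%) were lower, beside 84.6% of all genes. The 1 higher gene, PCDH15, no longer passed the test without that library. There were 2 higher and 131 lower with dCeMM-2, where 1.48% of all genes were higher and 83% lower, and 1 higher and 134 lower with dCeMM-3, where 1.12% of all genes were higher and 83.7% lower. With dCeMM-4 the counts were 3 higher and 81 lower, against 6.3% and 48% of all genes. With dCeMM-1 they were 3 higher and 4 lower, against 2.83% and 1.34%. Without dCeMM-4 replicate 1 the count higher with that compound was 7. Median log2 fold changes on this scale were -1.36 for the long genes and -1.94 for all genes with THZ531, -1.43 and -1.80 with dCeMM-2, -1.65 and -1.96 with dCeMM-3, -0.76 and -0.56 with dCeMM-4, and 0.18 and 0.10 with dCeMM-1. A change of direction between the scales was counted for the long genes only, so the counts have no matching share over all genes. Of all genes tested, 84.7% were lower on the spike-in scale with THZ531, 83% with dCeMM-2 and 83.7% with dCeMM-3. Of the long genes higher on the TMM scale, 63 of 76 were lower on the spike-in scale with THZ531, 52 of 66 with dCeMM-2 and 50 of 62 with dCeMM-3. SMYD3 was one of those, with 192, 148 and 151 spike-in scaled CPM with THZ531, against 313, 379.6 and 357 in DMSO, and fell by 1.09 on the log2 scale (SE 0.21, edgeR adjusted p = 2.1e-07). DOCK3 had 31.7, 42.5 and 30.3 spike-in scaled CPM with dCeMM-2, against 38.1, 53.0 and 47.6 in DMSO, a log2 fold change of -0.41 (SE 0.22, edgeR adjusted p = 0.0781), and PTPRG one of -0.36 (SE 0.21, edgeR adjusted p = 0.1) with THZ531. Whether the amount of spike-in followed cell number or RNA mass is not in the labels.

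PCDH15 was the long gene called higher on the spike-in scale in the most comparisons with DMSO, 4 of the 5. On that scale it had 6.96, 5.38 and 5.12 CPM with THZ531, 5.87, 7.02 and 4.07 with dCeMM-2, 6.50, 3.33 and 7.55 with dCeMM-3 and 6.24, 6.58 and 7.81 with dCeMM-1, against 3.29, 4.38 and 2.07 CPM in DMSO. Only the THZ531 and dCeMM-1 libraries of these all lay above every DMSO library. It rose by 0.72 (SE 0.29) with THZ531, by 0.69 (SE 0.30) with dCeMM-2, by 0.72 (SE 0.29) with dCeMM-3 and by 0.97 (SE 0.31) with dCeMM-1, at edgeR adjusted p of 0.0171, 0.0238, 0.0174 and 0.0419. With dCeMM-4 its value was 0.56 (SE 0.30, edgeR adjusted p = 0.11). These calls rest on few libraries: the adjusted p was 0.0680 to 0.0768 with THZ531 without its own replicate 1 or without DMSO replicate 1 or 3. It was 0.0535 to 0.124 with dCeMM-2 without its own replicate 1 or 2 or DMSO replicate 1 or 3, 0.0671 to 0.136 with dCeMM-3 without its own replicate 1 or 3 or the same DMSO libraries, and 0.0598 to 0.209 with dCeMM-1 without any 1 of the 6 libraries.

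The other rises over DMSO on the spike-in scale were those of FBXL17 and MAGI2 with dCeMM-1, AUTS2 and DNAH14 with dCeMM-4, and RASGEF1B with dCeMM-2 and dCeMM-4. FBXL17 rose by 0.82 (SE 0.23) with dCeMM-1, at 46.6, 54.8 and 59.5 CPM with dCeMM-1, against 25.6, 30.4 and 36.4 CPM in DMSO, and its adjusted p was 0.0856 to 0.171 without dCeMM-1 replicate 2 or 3 or DMSO replicate 1 or 2. MAGI2, a synaptic scaffold, rose by 1.63 on the log2 scale (SE 0.45, edgeR adjusted p = 0.0159) with dCeMM-1, on 81 counts with the compound and 22 in DMSO, and its adjusted p was 0.0717 to 0.102 without dCeMM-1 replicate 3 or any 1 DMSO library. AUTS2 had 32.7, 56.0 and 46.9 CPM with dCeMM-4, against 26.7, 33.4 and 30.6 CPM in DMSO, and rose by 0.58 on the log2 scale (SE 0.23, edgeR adjusted p = 0.0224). DNAH14 had 32.9, 49.3 and 43.3 CPM with dCeMM-4, against 23.0, 27.1 and 33.9 CPM in DMSO, and rose by 0.61 on the log2 scale (SE 0.23, edgeR adjusted p = 0.0173). Their adjusted p was 0.0517 to 0.166 for AUTS2 without dCeMM-4 replicate 2 or 3 or DMSO replicate 1 or 3, and 0.0512 to 0.116 for DNAH14 without the same dCeMM-4 libraries or DMSO replicate 1 or 2. RASGEF1B, a guanine nucleotide exchange factor for Ras-type GTPases named after its values were seen, was called higher on both scales with dCeMM-2 and dCeMM-4. Libraries of the other groups held at most 6 counts of RASGEF1B each, so it was high enough for testing only through these same groups. Its values are therefore a description only. RASGEF1B had 69 counts over the dCeMM-4 libraries, 36 with dCeMM-2 and 13 with THZ531, against 1 count in DMSO. Per TMM-scaled library, the ratio to DMSO was 57.8 with dCeMM-4 (exact 95% interval 10.03 to 2315, counting error only), 44.6 with dCeMM-2 (7.504 to 1808) and 14.9 with THZ531 (2.24 to 635).

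The compounds known as cyclin K degraders were compared with each other at the same multiple of EC50, in 3 pairs, and p-values were adjusted over all genes within each pair. The code names carry no structure, and THZ531, given at a fixed concentration, was only set side by side. With dCeMM-2 against dCeMM-3, 37 of the 148 long genes were higher and 14 lower, against 26.6% and 16.5% of all genes, and the median log2 difference was 0.16. Without dCeMM-2 replicate 1, the lower ones numbered 9. DLC1 had 223, 233 and 232 CPM with dCeMM-2, against 32.2, 34.2 and 35.2 CPM with dCeMM-3, a log2 difference of 2.76 (SE 0.07, edgeR adjusted p = 1.58e-29). PDE4B had 41.4, 40.1 and 39.95 CPM with dCeMM-2, against 5.92, 5.49 and 7.15 CPM with dCeMM-3, a difference of 2.70 (SE 0.11, edgeR adjusted p = 1.69e-22). The related PDE4D differed by 2.52 (SE 0.09, edgeR adjusted p = 2.17e-24), so both phosphodiesterases were higher with dCeMM-2. FSTL5 had 46.9, 49.7 and 50.8 CPM with dCeMM-2, against 102, 105 and 111 CPM with dCeMM-3, a difference of -1.11 (SE 0.10, edgeR adjusted p = 2.11e-12). FOXP2 differed by -0.62 (SE 0.12, edgeR adjusted p = 5.36e-05), and FGF12 by -1.03 (SE 0.35, edgeR adjusted p = 0.0145), but the adjusted p of FGF12 was 0.116 without dCeMM-2 replicate 1 and 0.0614 without dCeMM-2 replicate 2. PCDH15 differed by -0.05 (SE 0.16) and DOCK3 by 0.03 (SE 0.08), neither past the threshold, with 95% intervals of -0.40 to 0.29 and -0.14 to 0.20.

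Set against dCeMM-4, more long genes were higher than lower with dCeMM-2 and dCeMM-3 on the TMM scale. The reverse held on the spike-in scale, for all genes as well. With dCeMM-2 against dCeMM-4, 76 of the 148 long genes were higher and 27 lower, 51.4% and 18.2% of them, against 38.4% and 38.9% of all genes, with a median difference of 0.36. With dCeMM-3 against dCeMM-4, 68 of the 148 long genes were higher and 45 lower, 45.9% and 30.4% of them, against 41.5% and 41.2% of all genes, with a median of 0.31. ALDH1A2, an enzyme of retinoic acid synthesis, had 3.56, 5.10 and 5.11 CPM with dCeMM-2 and 6.12, 6.01 and 4.77 with dCeMM-3, against 1.49, 1.45 and 0.854 CPM with dCeMM-4. The differences were 1.83 (SE 0.24, edgeR adjusted p = 1.21e-08) for dCeMM-2 and 2.15 (SE 0.23, edgeR adjusted p = 5.09e-11) for dCeMM-3. PCDH11X, an X-linked protocadherin, and RYR2, a calcium release channel, were also higher with dCeMM-2, by 1.78 (SE 0.31) and 1.68 (SE 0.27). FSTL5 and FGF12 were higher with dCeMM-3, by 2.65 (SE 0.10) and 2.15 (SE 0.37).

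Among the genes lower with dCeMM-2 or dCeMM-3 than with dCeMM-4 were PDE4B, EGLN3, MECOM and DLC1. PDE4B had 5.92, 5.49 and 7.15 CPM with dCeMM-3, against 161, 164 and 165 CPM with dCeMM-4, a log2 difference of -4.71 (SE 0.10, edgeR adjusted p = 6.88e-32), and with dCeMM-2 against dCeMM-4 it was -2.01 (SE 0.08, edgeR adjusted p = 1.9e-22). EGLN3 had 5.27, 6.79 and 6.38 CPM with dCeMM-2, against 24.7, 24.97 and 26.8 CPM with dCeMM-4, and differed by -2.06 (SE 0.13), and by -3.40 (SE 0.15) with dCeMM-3 against dCeMM-4. MECOM was lower with dCeMM-2 than with dCeMM-4, with a log2 difference of -1.90 (SE 0.14), and DLC1 was lower with dCeMM-3, with a difference of -3.12 (SE 0.07). TMEM117 had 4.23, 6.15 and 6.25 CPM with dCeMM-2 and 5.98, 6.22 and 4.13 with dCeMM-3, against 4.41, 3.77 and 5.30 CPM with dCeMM-4, with differences of 0.28 (SE 0.18) and 0.27 (SE 0.17) that did not pass the threshold, and 95% intervals of -0.11 to 0.66 and -0.10 to 0.65. On the spike-in scale there was 1 long gene higher and 88 lower for dCeMM-2 against dCeMM-4 (2.63% and 66.8% of all genes), 4 and 91 for dCeMM-3 against dCeMM-4 (5.35% and 65.3%), and 22 and 1 for dCeMM-2 against dCeMM-3 (18.4% and 4.32%). With dCeMM-2 against dCeMM-3 the spike-in scaled differences were 2.80 (SE 0.22) for DLC1, 2.73 (SE 0.24) for PDE4B, 2.55 (SE 0.22) for PDE4D and 2.09 (SE 0.24) for PRKCE, all past the threshold and close to the TMM values. BANK1 was among the genes higher than with dCeMM-4 on both scales. Its spike-in scaled difference was 0.48 (SE 0.23, edgeR adjusted p = 0.0491) for dCeMM-2, close to the threshold. For dCeMM-3 it was 0.65 (SE 0.23, edgeR adjusted p = 0.00637). Neither spike-in call was repeated with a library left out.

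Beyond span, the tested long genes shared a structure. They had a median of 10356 bp of exon, 28.5 exon blocks and 13 annotated transcripts, against 5113 bp, 11 blocks and 8 transcripts in tested protein-coding genes under 500 kb, and exons covered 1.49% of their span, against 15.9%. At least 1 other gene lay inside 181 of the 188, with a median of 4. A median of 35.9% of a long gene's annotated transcripts spanned under 100 kb, so a count for the gene can come from a short transcript as well as from the full-length one. Of all genes tested, 32.9% were higher and 35.3% lower with dCeMM-4. With that compound, the 57 genes with under 30% of such short transcripts had 9 higher, 30 lower and a median log2 fold change of -0.42, and the other 91 had 22 higher, 31 lower and a median of -0.09. Medians of the same 2 groups were 0.46 and 0.44 with THZ531, 0.31 and 0.30 with dCeMM-2, 0.10 and 0.18 with dCeMM-3 and 0.10 and 0.08 with dCeMM-1, and the groups were not tested against each other. Of the 57, 28 rose and 16 fell with THZ531, 25 rose and 17 fell with dCeMM-2, 24 rose and 21 fell with dCeMM-3 and 11 rose and 7 fell with dCeMM-1, and of the 91, 48 rose and 20 fell with THZ531, 41 rose and 17 fell with dCeMM-2, 38 rose and 28 fell with dCeMM-3 and 14 rose and 10 fell with dCeMM-1. The all-gene shares of these 4 comparisons were 35.8% higher and 43.7% lower with THZ531, 37.1% and 41.2% with dCeMM-2, 35.9% and 45.1% with dCeMM-3, and 16.5% and 14.8% with dCeMM-1. The DMSO level per kilobase of exon had a Spearman rank correlation with the log2 fold change of -0.19 with THZ531, -0.17 with dCeMM-2, -0.18 with dCeMM-3, -0.12 with dCeMM-4 and -0.30 with dCeMM-1 over the 148 genes, and the DMSO level enters both of these measures. The 40 members too low to test had 37 to 201 counts per library in all and were not tested.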

How the data were processed

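Polyadenylated RNA of KBM7 cells was sequenced in 18 libraries, 3 in each of 6 groups set by the treatment label. Per the submitters' processing notes, HTSeq 0.11.2, STAR 2.5.2b, Trimmomatic 0.32 and Picard are listed with the builds GRCh38.p7 and hg38, without roles or order. The files hold whole-number read counts per gene, as deposited by the authors, with 58051 gene identifiers, 92 ERCC sequences, 7 SIRV genes and 5 HTSeq summary rows, which stayed out of library sizes and tests. The strand setting of the counting and any use of molecular identifiers are not given in the sources used here. Reads without molecular identifiers are not independent molecules, so counting intervals cover counting error only.

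Gene spans came from GENCODE release 29, which matched 57447 of the identifiers. Members spanned at least 500 kb and had at least 20 counts over all libraries, and 1 gene is not reported here. The members, the role lists and the tests were chosen with earlier results of these data known. Genes passing filterByExpr (15055) were fitted with edgeR 4.0.16 (robust quasi-likelihood, limma 3.58.1, R 4.3.3) on all 18 libraries with 1 coefficient per group, 12 residual degrees of freedom and a common dispersion of 0.00439. TMM factors gave the first scale, and the sums of ERCC and SIRV counts gave the spike-in scale in the same fit. P-values were adjusted by the Benjamini-Hochberg method over all genes tested, with a threshold of 0.05. Standard errors are those of the log2 fold change. The TMM fit was also run on simulated counts in which a small part of the genes changed in 1 group. That run did not cover the spike-in scale or a change in most genes.

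Named genes were, per comparison with DMSO, the 4 largest rises and 4 largest falls that passed the threshold with no overlap between treated and DMSO libraries and a mean of at least 2 CPM in the higher group. Between compounds the 3 largest each way were named. The 5 highest genes in DMSO per kilobase of exon, the 3 longest genes and rises on the spike-in scale of at least 2 CPM were added, and examples from the role lists were chosen after their values were seen. Overlaps of exons with another gene are given from 10% upwards. Promoter windows were matched by symbol to RefSeq for 156 of the 188 members and 122 of the 148 tested. Alternatives were DESeq2 1.42.0, its size factors inside edgeR, other filters, 2-group fits, ERCC or SIRV counts alone, a replicate block, a span of at least 750 kb, and each library left out. Tables and plots used Python 3.11.15, pandas 2.3.3 and matplotlib 3.10.9.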

Additional observations from a re-analysis of the deposited data

How the results depend on the processing

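Depth limited the low genes: the 40 members with at most 118 counts in total were not tested, and DMSO replicate 3 was the shallowest library. On the TMM scale the long genes higher with dCeMM-1 numbered 25, against 12 with DESeq2, 16 with no filter on low counts and 13 to 20 with any 1 library left out. The lower ones numbered 17, against 11 with no filter and 11 to 14 with a library left out. For dCeMM-2 against dCeMM-3 the lower long genes numbered 14, and 9 to 13 with a library left out. With a filter of at least 1 CPM in 3 libraries the median of the long genes lay 0.376 above that of all genes with dCeMM-2 (0.329 before), 0.375 with dCeMM-3 (0.283) and 0.613 with THZ531 (0.551). For spans of at least 750 kb these differences were 0.594, 0.532 and 0.766, and -0.0269 with dCeMM-4 (-0.186 for all long genes). With any 1 library left out, the differences for all long genes were 0.289 to 0.352 with dCeMM-2, 0.222 to 0.271 with dCeMM-3 and 0.505 to 0.578 with THZ531. They were -0.242 to -0.140 with dCeMM-4 and 0.0601 to 0.104 with dCeMM-1 (0.0705). Every such value with dCeMM-3 lay below the 0.283 found with all libraries. On the spike-in scale the higher long genes with a library left out numbered 0 to 2 with dCeMM-1, 1 to 2 with dCeMM-2, 0 to 1 with dCeMM-3, 1 to 7 with dCeMM-4 and 0 to 1 with THZ531, and the lower ones 0 to 3 with dCeMM-1. The causes of these differences were not tested. DESeq2 size factors inside edgeR, fits of only the 2 groups compared, and ERCC or SIRV counts alone changed no call of a named gene and moved no count by over 1.5 times, and no result reversed under any of the alternatives run. With THZ531, 76 higher and 36 lower long genes became 84 and 24 in the 2-group fit, 78 and 24 with DESeq2, and 87 and 27 with its size factors. With dCeMM-3, 62 higher and 49 lower became 69 and 38, 63 and 37, and 70 and 41 in the same order.

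Replicate numbers did not pair the libraries: correlations of same-numbered libraries, as deviations from their group means, ran from -0.188 to 0.186. With a replicate block 22 long genes were higher with dCeMM-1 and 77 with THZ531 on the TMM scale, and 1 named call passed the threshold no longer, that of PCDH15 with dCeMM-1 on the spike-in scale (edgeR adjusted p = 0.0556).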
